A study of Mus musculus with 5 samples.

Results

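Smooth muscle cells and pericytes, together called mural cells, were examined in 5 single-nucleus libraries of mouse hindlimb skeletal muscle. A nucleus was selected when it held at least 5 UMIs (counted RNA molecules) of Myh11, Rgs5, Notch3, Abcc9, Kcnj8 and Gucy1a1 together, from at least 2 of these 6 genes. It also had to hold fewer than 5 UMIs of the endothelial genes Pecam1, Cdh5, Flt1 and Ptprb, and to carry the muscle fibre genes Ttn, Neb, Trdn and Ryr1 below 1.5% of its UMIs, or below 4% in the adult. This rule kept 527 of 21154 nuclei that passed quality limits. The rule used RNA of these same nuclei, so levels of the 6 genes are given as a description only.

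The libraries came from Cacna1s-/- embryos at E18.5 and from wild-type (WT) C57bl6n mice at E14.5, E18.5, P5 (postnatal day 5) and the adult stage, with 1 library per group. Cacna1s-/- mice (KO), also C57bl6n, lack the skeletal muscle L-type calcium channel in the whole animal, and the fetuses are paralysed. Each library pooled limbs of several animals, 26 hindlimbs for the KO and 56, 14, 8 and 4 for the WT stages in order of age, with skin and bone removed. Nuclei were sorted into PCM1+ (muscle fibre) and PCM1- fractions that were mixed again in equal volumes, so the share of mural nuclei among all nuclei was set in part by the sort. With 1 library per group no difference between groups could be tested. All 95% intervals below come from exact Poisson, binomial or conditional binomial limits and cover counting error only, neither animals nor libraries nor the fact that UMIs of 1 nucleus belong together.

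The libraries held between 21394846 and 49913899 UMIs in their barcodes. The KO allele is a KOMP allele in which a cassette takes the place of coding sequence, and RNA of the deleted gene followed the labels: in muscle nuclei Cacna1s had 0.731 CPM (95% interval 0.316 to 1.44; CPM is a count scaled to 1000000 UMIs) in the KO, against 189 CPM (182 to 197) for WT E18.5. Selected nuclei held 0 UMIs of Cacna1s in the KO and 13 in WT E18.5. No cell barcode occurred in selected nuclei of more than 1 library. Doublets were not removed with a caller.

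Vascular smooth muscle cells wrap arteries and arterioles and contract through smooth muscle myosin and actin, under the control of calcium entry, nitric oxide and cGMP. Pericytes sit in the basement membrane of capillaries, carry the PDGF receptor beta and a potassium channel built of Kcnj8 and Abcc9, and are drawn to the vessel by PDGF from endothelial cells. Both kinds respond to Notch ligands on endothelial cells through NOTCH3 and its target genes. In fetal muscle these cells spread along a growing vessel bed, while in the adult they mostly divide rarely.

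The selected nuclei numbered 191 in the KO, and 61, 124, 127 and 24 in WT E14.5, E18.5, P5 and the adult. They were not 1 population. In 234 of them the 6 selection genes made up at least 0.2% of all UMIs, and these are called marker-rich. The other 293 are called marker-poor. The 0.2% limit was set after the data were seen, and the share of the 6 genes ran across it without a gap: 13 selected nuclei of the KO, and 11, 3, 17 and 0 along the WT stages, lay between 0.15% and 0.2%, and 8 of the KO, and 3, 6, 6 and 0, between 0.2% and 0.25%. At the edge of the rule itself, 36 selected nuclei of the KO, and 13, 20, 12 and 2 along the WT stages, held exactly 5 UMIs of the 6 genes, while 40 nuclei of the KO, and 16, 29, 16 and 1, met the rest of the rule with 4 UMIs and stayed outside. The median share in marker-rich nuclei was 0.411% in the KO and 0.344%, 0.523%, 0.619% and 0.904% along the WT stages. In marker-poor nuclei it was 0.0689% in the KO and 0.114%, 0.0676% and 0.116% at WT E14.5, E18.5 and P5. The marker-poor nuclei were deeper, with a median of 10087 UMIs against 7055.5 in marker-rich nuclei of the KO, and 11410.5 against 6173 at WT E18.5. The adult library held no marker-poor nucleus. The rule asked for at least 5 UMIs of the 6 genes, so a shallow nucleus could not fall below 0.2%. Selected adult nuclei had a median of 1686.5 UMIs. The absence of marker-poor nuclei and the high median share in the adult were thus set in part by the definition. The same holds for the greater depth of marker-poor nuclei.

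**Figure D1:**
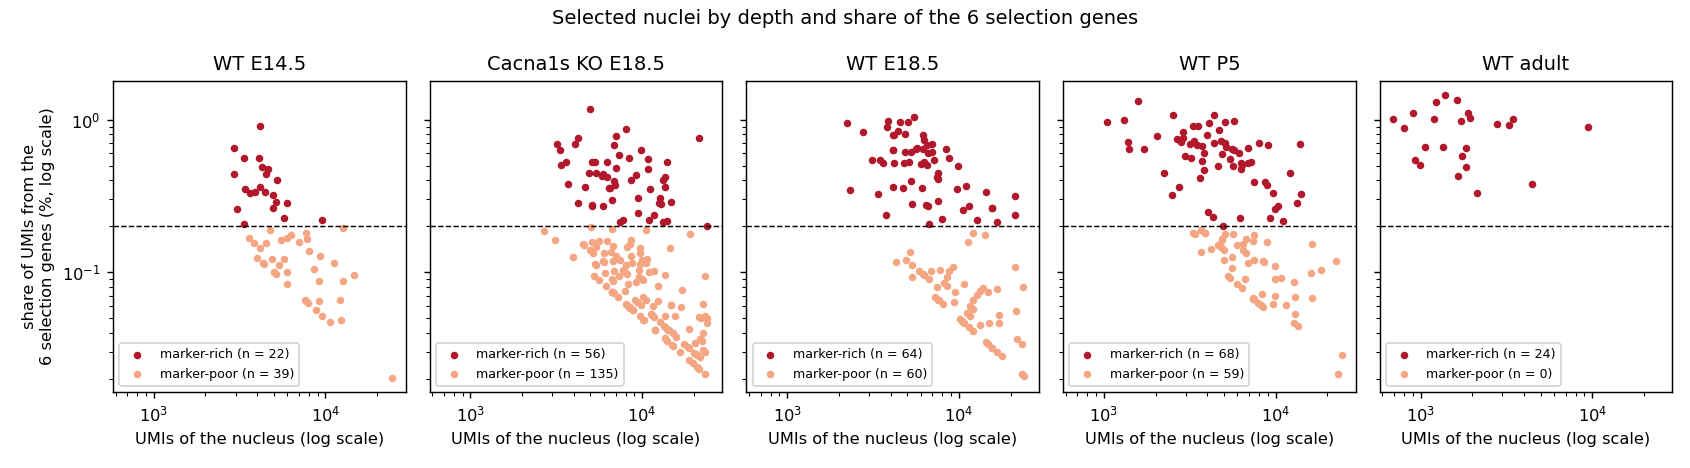
Share of the UMIs of each selected nucleus that came from the 6 selection genes (percent, log axis) against the UMIs of the nucleus (log axis), 1 panel per library. Red points are marker-rich nuclei and orange points marker-poor nuclei, split at the dashed line at 0.2%. The orange points lie to the right, at higher UMI counts, and are the larger group in the KO (135 of 191) and at E14.5 (39 of 61).

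The label of smooth muscle and pericytes fitted the marker-rich nuclei, whereas the marker-poor nuclei carried mural markers at lower levels together with RNA of other cell types. Mesenchymal RNA (at least 5 UMIs of Pdgfra, Dcn, Lum, Col1a1 and Col3a1 together) was present in 125 of 135 marker-poor nuclei of the KO, 33 of 39 at E14.5, 59 of 60 at WT E18.5 and 58 of 59 at P5. At least 2 UMIs of muscle stem cell genes were found in 45 of the 135 KO nuclei, and in 8 of 39, 16 of 60 and 8 of 59 at WT E14.5, E18.5 and P5. Of marker-rich nuclei, 6 of 56 in the KO reached this, and 0 of 22, 4 of 64, 2 of 68 and 0 of 24 along the WT stages. Both limits are fixed UMI counts, and the marker-poor nuclei were the deeper ones. The marker-rich nuclei held mesenchymal RNA less often, in 21 of 56 in the KO, and in 8 of 22, 25 of 64, 31 of 68 and 0 of 24 along the WT stages. Results below are therefore given for the marker-rich nuclei, beside the value of all selected nuclei where the 2 sets differ.

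Markers of mural cells that the rule did not use were higher in marker-rich nuclei than in the other non-muscle nuclei of each library. The 16 markers of the list summed to 7042 CPM in marker-rich and 2555 CPM in other nuclei of the KO. In WT, marker-rich and other nuclei had 9722 and 2351 CPM at E14.5, 7572 and 3238 CPM at E18.5, 8917 and 4340 CPM at P5, and 8992 and 5098 CPM in the adult. A large part of these sums was Ebf1, a transcription factor that the other non-muscle nuclei also held, with 4256 CPM in marker-rich and 2251 CPM in other nuclei of the KO and 5221 and 4799 CPM in the adult. Ebf1 was set apart after its values were seen. The other 15 markers summed to 2787 CPM in marker-rich nuclei of the KO, against 461 CPM in marker-poor and 304 CPM in other non-muscle nuclei. In the WT libraries the sum was 3132, 3468, 3086 and 3772 CPM in marker-rich nuclei from E14.5 to the adult, and between 281 and 329 CPM in other nuclei. At least 3 UMIs of these markers were found in 55 of 56 marker-rich KO nuclei, and in 22 of 22, 64 of 64, 65 of 68 and 22 of 24 along the WT stages. In marker-poor nuclei the count was 92 of 135 in the KO, and 28 of 39, 38 of 60 and 39 of 59 at WT E14.5, E18.5 and P5, while 31.9% of other KO nuclei and 15.2%, 29.7% and 19.4% of other nuclei at those WT stages reached it. The 15 markers summed to 979, 431 and 593 CPM in the marker-poor nuclei of these 3 WT stages. Myocd, the coactivator that turns on the smooth muscle contractile genes, had 217 CPM in the KO and 325, 317, 302 and 337 CPM along the WT stages in marker-rich nuclei. Pdgfrb, the PDGF receptor that pericytes need to follow a vessel, had 396 CPM in the KO and 814, 465, 486 and 695 CPM, against 38.5 to 83.1 CPM in other nuclei. Acta2, smooth muscle actin, had 309 CPM in the KO and 132, 385, 502 and 873 CPM, against 6.67 to 30.0 CPM in other nuclei. Several markers of the list were near 0 in these nuclear libraries: Cnn1 had 0 to 10 UMIs, Higd1b 0 to 3 and Foxs1 0 to 4 per library.

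**Figure D2:**
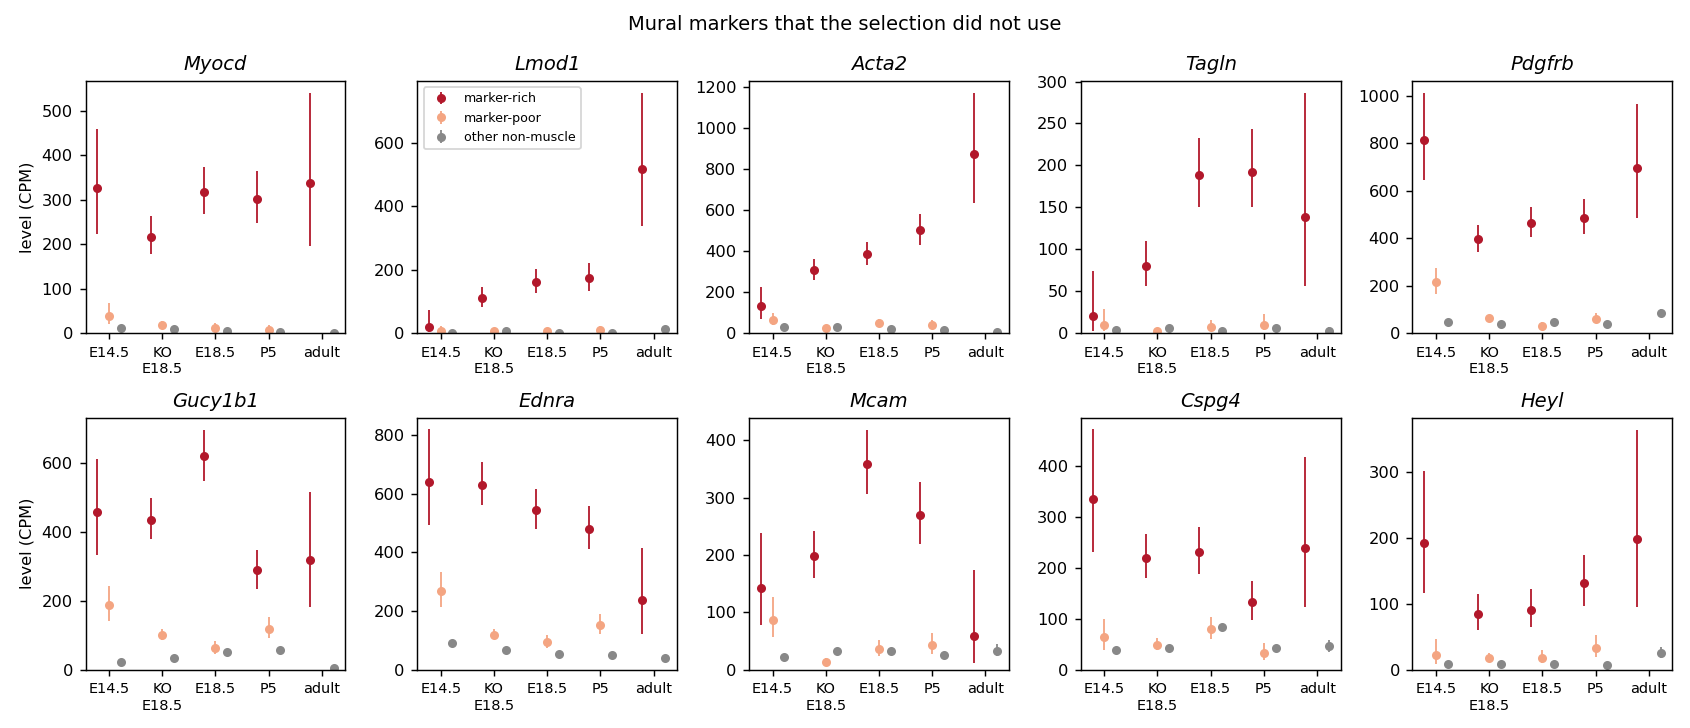
CPM of 10 mural cell genes that the selection did not use, in marker-rich, marker-poor and other non-muscle nuclei of each library, with 95% Poisson intervals as bars (counting error only). Marker-rich nuclei lie above the other non-muscle nuclei in the panels, for Pdgfrb at 396 to 814 CPM against 38.5 to 83.1 CPM, and marker-poor nuclei lie between them or near the other nuclei.

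The genes that stood highest over the other non-muscle nuclei differed in part between the libraries. Olfr558, an olfactory receptor, had 40 UMIs in marker-rich and 6 in other nuclei of the KO, and 56 and 5 UMIs at WT E18.5. Olfr78, another receptor of this family known from vascular smooth muscle, had 27 and 23 UMIs in the KO, 72 and 1 UMIs at P5 and 35 and 0 UMIs in the adult. Slc38a11, an amino acid transporter, had 28 and 13 UMIs in the KO and 36 and 0 UMIs at WT E18.5. P2rx1, the ATP-gated channel of arterial smooth muscle, had 26 and 23 UMIs in the KO and 44 and 8 UMIs at WT E18.5. At E14.5 the leading genes were Rasl12 (20 and 53 UMIs), the cation channel Trpc6 (24 and 75) and the noncoding RNA Morrbid (92 and 294). The other nuclei outnumbered the marker-rich ones many times over in each library. These genes are a description, since the nuclei were chosen on their RNA.

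RNA of other cell types in marker-rich nuclei differed between the libraries. The summed muscle fibre markers had 5316 CPM in the KO, and 498, 3419, 4341 and 11870 CPM from E14.5 to the adult. The selection rule itself limited muscle fibre genes, and its limit was looser in the adult than in the other libraries. The part of this looser limit in the high adult value was not tested. Mesenchymal markers summed to 1846 CPM in the KO, against 3045 CPM at WT E18.5, 1658 CPM at E14.5, 4785 CPM at P5 and 615 CPM in the adult. Endothelial markers, which include the endothelial genes limited by the rule, summed to 158 CPM in the KO. Along the WT stages they had 417, 210, 181 and 79.4 CPM. Other non-muscle nuclei had 552 CPM in the KO, and 466, 569, 699 and 320 CPM along the WT stages. At E14.5 the marker-rich value was thus near that of other nuclei. Macrophage markers summed to 122 CPM in the KO and 24.4 CPM at WT E18.5. Muscle stem cell markers summed to 204 CPM in the KO and 113 CPM at WT E18.5. Their part in the differences below was not tested.

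Open chromatin at gene starts was higher in marker-rich nuclei for most markers outside the selection, least clearly at E14.5. At gene starts (peaks within 1 kb), 9 of 13 measured markers outside the selection had more counts, relative to all peak counts, in marker-rich than in other non-muscle nuclei of the KO, with a median ratio of 2.21. In the WT libraries this held for 8 of 13, 14 of 14, 13 of 13 and 10 of 10 markers along the stages, with medians of 1.85, 2.85, 2.32 and 1.87. The medians over all genes were 0.951 in the KO and 0.717, 1.00, 0.991 and 0.996 along the WT stages. The interval of the ratio lay above 1 for 6 of 13 markers in the KO. In WT it did for 0 of 13, 8 of 14, 6 of 13 and 3 of 10 along the stages. Contractile gene starts had medians of 1.32 in the KO and 0.881, 1.51, 1.23 and 1.47 along the WT stages. Starts of pericyte identity genes had medians of 0.938 in the KO and 2.33, 1.24, 1.49 and 1.40 in WT. At E14.5 the interval lay above 1 for 0 of 25 contractile and 0 of 10 pericyte identity genes, so these medians rest on few counts. Lmod1, a leiomodin that nucleates actin filaments, had 53.0 CPM at its start in marker-rich and 8.38 in other nuclei of WT E18.5, a ratio of 6.32 (3.35 to 11.1). Its ratio was 4.32 (1.41 to 10.7) in the KO. Tagln, the actin-bundling protein SM22, had a ratio of 2.03 (0.905 to 3.97) in the KO, against 4.73 (2.90 to 7.35) for WT E18.5. Acta2 had a ratio of 0.809 (0.164 to 2.43, from 6 counts) in the KO, against 4.41 (2.50 to 7.31) for WT E18.5. Heyl, a NOTCH3 target, had 6.31 (3.17 to 11.7) in the KO, against 2.86 (1.34 to 5.43) for WT E18.5. The intervals of the KO and WT ratios overlapped for Lmod1, Tagln and Heyl and just missed each other for Acta2, which had few counts in the KO.

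Myl9 encodes the regulatory light chain whose phosphorylation starts smooth muscle contraction. Its start was more open in marker-rich than in other nuclei of every library but E14.5, where counts were too few to tell. The ratio over other nuclei was 5.70 (3.31 to 9.34; 149 and 26.1 CPM of peak counts) in the KO, 3.67 (2.40 to 5.43; 102 and 27.8) at WT E18.5. Later stages gave 2.22 (1.31 to 3.56) for P5 and 5.11 (2.06 to 10.8) for the adult. At E14.5 it was 0.994, with 35.0 and 35.2 CPM. The marker-rich nuclei of E14.5 held only 57179 peak counts in all, against 547409 at WT E18.5, so this value rests on very few counts. The promoter is shown because it holds a CArG box, the site of serum response factor (CC, then 6 bases of A or T, then GG), which is in capitals, 161 bases before the start of the gene. The sequence is RefSeq's, GRCm38.p6, chr2:156775214-156775513, plus strand.
Myl9 promoter: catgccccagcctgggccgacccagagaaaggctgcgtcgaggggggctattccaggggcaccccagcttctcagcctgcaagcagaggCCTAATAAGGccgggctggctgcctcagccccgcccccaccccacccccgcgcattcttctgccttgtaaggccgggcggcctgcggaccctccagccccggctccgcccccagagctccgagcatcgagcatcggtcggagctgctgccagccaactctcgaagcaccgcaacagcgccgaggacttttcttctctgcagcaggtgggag
A CArG box was found in 535 of 32851 promoters of this length (1.63%), both strands searched. It was in 5 of the 25 contractile genes with a promoter in the table, which were Cnn2, Fhl1, Filip1l, Myl6 and Myl9, and in none of 14 pericyte identity genes.

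Over all peaks, 26 were at least 4-fold more open in marker-rich than in other nuclei, on at least 20 counts, in 2 or more libraries. The first peak shown lies in GRCm38 at chr9:30445086-30445897, 18.4 kb from Snx19, and is shown because it was the only 1 of the 26 with a CArG box in its central 300 bases. Its ratios were 27.0 (14.7 to 48.7) at WT E18.5 and 15.4 (6.31 to 36.3) at P5. The second lies at chr17:26451648-26452326, 12.2 kb from its nearest gene Gm50269 and 37 kb from Neurl1b, a ligase of the Notch pathway. Its label below uses Neurl1b, but a link of this peak to that gene or to Notch was not tested. The peak is 1 of 14 of the 26 with TGGGAA, and had ratios of 6.06 (3.37 to 10.2) at WT E18.5 and 15.1 (7.88 to 27.4) in the adult, and of 5.35 (2.59 to 10.2) at P5. The central 300 bases of each, plus strand, are shown with their motifs in capitals, CArG boxes in the first and TGGGAA, the core of the RBPJ site that Notch acts through, in the second (TTCCCA on the other strand).
Snx19 peak, chr9:30445342-30445641: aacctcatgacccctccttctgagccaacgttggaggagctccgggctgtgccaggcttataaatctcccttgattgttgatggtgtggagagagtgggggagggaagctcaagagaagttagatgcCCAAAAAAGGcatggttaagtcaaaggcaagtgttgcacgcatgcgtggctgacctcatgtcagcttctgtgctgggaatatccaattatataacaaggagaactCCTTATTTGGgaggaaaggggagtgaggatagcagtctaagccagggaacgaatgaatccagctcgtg
Neurl1b peak, chr17:26451837-26452136: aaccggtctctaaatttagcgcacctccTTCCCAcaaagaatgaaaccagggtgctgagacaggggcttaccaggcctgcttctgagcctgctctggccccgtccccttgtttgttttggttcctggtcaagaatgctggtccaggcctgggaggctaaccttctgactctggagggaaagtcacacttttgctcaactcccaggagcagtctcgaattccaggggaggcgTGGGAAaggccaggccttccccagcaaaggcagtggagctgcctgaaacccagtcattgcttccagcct
Among peaks more than 1 kb from a gene start, TGGGAA was in 50% of those enriched in marker-rich nuclei (10 of 20) and 26% of the others (54 of 208) in the KO. The shares were 49.2% (64 of 130) and 34.4% at WT E18.5 and 43.2% (19 of 44) and 34.8% at P5. The CArG box was in 5% (1 of 20) and 3.37% in the KO. It was in 6.92% (9 of 130) and 3.21% at WT E18.5, and 6.82% (3 of 44) and 3.55% at P5. The enriched peaks had a lower GC content (54.8% against 58.5% at P5). These shares are a description of letters in the windows.

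The marker-rich nuclei divided into those led by the smooth muscle myosin Myh11 and those led by the pericyte genes Rgs5, Abcc9 and Kcnj8, according to which supplied at least 50% of the UMIs of these 4 genes. Myh11-led nuclei were 23 of 55 in the KO (41.8%, exact 95% interval 28.7 to 55.9), and 3 of 22 (13.6%, 2.91 to 34.9), 36 of 64 (56.2%, 43.3 to 68.6), 30 of 68 (44.1%, 32.1 to 56.7) and 9 of 24 (37.5%, 18.8 to 59.4) along the WT stages. The E18.5 interval lay above that of E14.5, while those of the KO and WT E18.5 overlapped. Between 25% and 75% lay 11 nuclei of the KO, and 4, 14, 8 and 1 along the WT stages, so the 2 kinds are the ends of a range.

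The 2 kinds differed in genes that the division did not use. Over the 5 libraries together (101 Myh11-led and 132 pericyte-led nuclei), the contractile regulator Myocd was 14.0-fold and Acta2 16.3-fold higher in Myh11-led nuclei. Kcnab1, an accessory subunit of voltage-gated potassium channels, was 22.1-fold higher (19.3 to 25.5), with 3692 and 215 UMIs. Ryr2, a calcium release channel of the internal store, was 22.7-fold higher (16.0 to 33.1), with 599 and 34 UMIs. Eln, tropoelastin, was 13.3-fold higher. Gja5, an arterial connexin, had 52 UMIs in Myh11-led and 0 in pericyte-led nuclei. With 3 counts in place of 0 the ratio was 22.3, and the lower limit of the interval was 17.5. Gja5 was higher in Myh11-led nuclei of 3 of the 5 libraries. In the other direction, Htr7, a serotonin receptor, had 1 UMI in Myh11-led and 129 in pericyte-led nuclei. Steap4, a metalloreductase and pericyte marker, had 3 and 89 UMIs, Art3 was 9.35-fold and Pdgfrb 3.44-fold higher in pericyte-led nuclei. Emcn, a gene of the endothelial marker list, had 3 UMIs in Myh11-led and 58 in pericyte-led nuclei. The part of endothelial RNA in the pericyte-led values was not tested. Cspg4 (1.32-fold), Gucy1b1 (1.35-fold) and the chloride channel gene Ano1 (1.17-fold) were only slightly higher in pericyte-led nuclei. Each of Kcnab1, Ryr2 and Tagln was higher in Myh11-led nuclei of all 5 libraries, and Htr7 and Steap4 were higher in those of 0 libraries. These counts rest on only 3 Myh11-led nuclei at E14.5 and 9 in the adult.

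**Figure D3:**
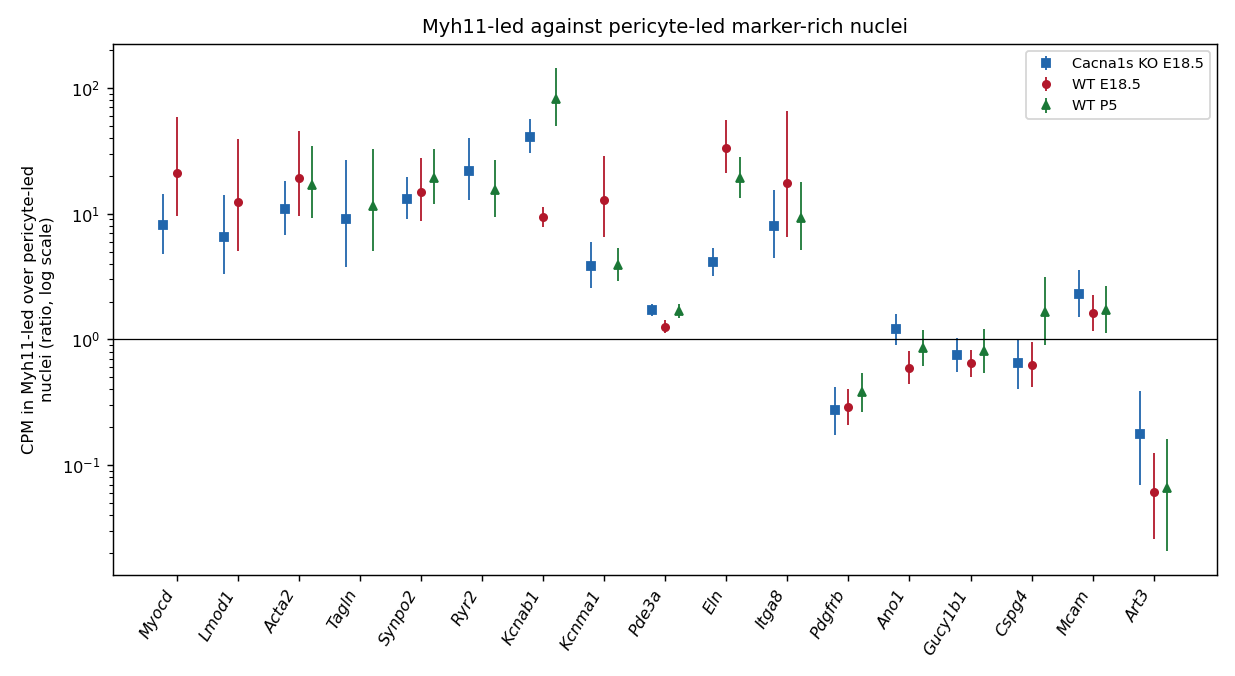
Ratio of CPM in Myh11-led over pericyte-led marker-rich nuclei for 17 genes (log axis) in the KO (blue squares), WT E18.5 (red circles) and WT P5 (green triangles), with 95% intervals for counting error; a ratio is drawn only where both kinds held more than 3 UMIs. Contractile genes and Eln lie above 1 (Kcnab1 at 41.0 in the KO and 81.9 at P5), Pdgfrb and Art3 below 1, and Ano1, Gucy1b1 and Cspg4 around 1.

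The share of mural nuclei among non-muscle nuclei was lowest at E14.5. Marker-rich nuclei were 2.49% (1.89 to 3.22; 56 of 2247) in the KO, and 0.733% (0.460 to 1.11; 22 of 3003), 2.37% (1.83 to 3.02; 64 of 2698), 3.43% (2.67 to 4.33; 68 of 1983) and 3.34% (2.15 to 4.93; 24 of 719) along the WT stages. The intervals of the KO and WT E18.5 shares of marker-rich nuclei overlapped almost fully. All selected nuclei made up 8.50% (7.38 to 9.73) in the KO and 4.60% (3.84 to 5.46) at WT E18.5, and the marker-poor nuclei among them 6.01% (5.06 to 7.07) in the KO and 2.22% (1.70 to 2.85) at WT E18.5. After each nucleus was thinned to 2000 UMIs and the rule applied again, the selected nuclei made up 2.64% in the KO and 2.43% at WT E18.5. Of the non-muscle nuclei, 2.09% and 4.26% were left out as too shallow. Along the WT stages the thinned shares were 0.929%, 2.43%, 3.57% and 2.88%, the last from 6 of 208 nuclei. Of the adult non-muscle nuclei, 71.3% (513 of 719) were left out.

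At E18.5 the contractile genes were higher than at E14.5. Of 23 contractile genes measured (at least 30 UMIs in the 2 stages together) in marker-rich nuclei, 19 were higher and 4 lower, 13 of them at least 2-fold higher and none 2-fold lower, with a median log2 ratio of 1.34. Over all genes, 14.1% were at least 2-fold higher and 6.86% at least 2-fold lower in marker-rich nuclei (10.7% and 5.45% in all selected nuclei), with a median log2 ratio of -0.01. In all selected nuclei the contractile median was 0.64, and in other non-muscle nuclei it was 0.10. Within pericyte-led nuclei alone (28 at E18.5 and 19 at E14.5) the median was -0.05, with 5 genes higher and 6 lower. There 11 contractile genes were measured, and the 3 Myh11-led nuclei of E14.5 were too few for a comparison within that kind. The part of the larger Myh11-led share at E18.5 in the difference was not tested. Muscle nuclei summed higher on the contractile list than marker-rich nuclei in every library, with 8751 and 7596 CPM in the KO. Along the WT stages the sums were 5982 and 5095, 9243 and 7707, 12840 and 9131, and 18032 and 15245 CPM. The part of muscle fibre RNA in the contractile values, here and in the comparisons below, was not tested.

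Among single genes, Acta2 had 174 UMIs in 39 of 64 nuclei at E18.5 and 13 UMIs in 4 of 22 nuclei at E14.5, 2.91-fold higher (1.66 to 5.58), against a ratio of 0.647 in other non-muscle nuclei. Mylk, the kinase of the myosin light chain, was 2.64-fold higher (1.75 to 4.14), and it was 2.10-fold higher in other nuclei too. Eln had 701 UMIs in 35 nuclei at E18.5 and 3 UMIs in 2 nuclei at E14.5, a ratio of 50.9 (17.3 to 247), against 3.29 in other nuclei. Of the Eln UMIs at E18.5, 682 were in Myh11-led nuclei. The share of marker-rich nuclei with Eln at E14.5 (9.09%) was below that of other non-muscle nuclei (16.9%). Sox6, a transcription factor, was found in 37 nuclei at E18.5 and 2 at E14.5, with a ratio of 20.4 (7.91 to 75.3) against 0.594 in other nuclei. Rcan2, a regulator of calcineurin, was found in 38 and 2 nuclei, with a ratio of 11.5 (4.88 to 35.8).

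Angpt1, Vegfc, Hmga2 and Pdgfrb were lower at E18.5 than at E14.5. The list of PDGF, TGF-beta, BMP and angiopoietin signalling did not share a direction, with 11 of 24 genes higher and 13 lower, 5 and 4 of them by at least 2-fold, and a median log2 ratio of -0.16. Angpt1, the ligand of the endothelial receptor TIE2, had 55 UMIs in 21 of 64 nuclei at E18.5 and 56 UMIs in 10 of 22 nuclei at E14.5, or 122 and 569 CPM, 4.68-fold lower (3.16 to 6.91). In other non-muscle nuclei its ratio was 1.09. Vegfc, a growth factor of lymphatic vessels, had 37.6 CPM at E18.5 and 468 CPM at E14.5, 12.4-fold lower (6.99 to 23.1), with 37.0% of the E14.5 UMIs in 1 nucleus. Hmga2, a chromatin protein of growing tissue, was 4.59-fold lower (3.05 to 6.91), and its ratio in other nuclei was 0.283. Pdgfrb was 1.75-fold lower (1.33 to 2.27) and Heyl 2.13-fold lower (1.17 to 3.75), while the Notch ligand Jag1 had 419 and 417 CPM. Pericyte-led nuclei, which held more Pdgfrb, were 28 of 64 at E18.5 and 19 of 22 at E14.5. The part of this shift in these values was not tested. Within pericyte-led nuclei the pericyte identity list had 5 genes higher and 3 lower (median 0.98). The signalling list had 8 higher and 11 lower there (median -0.27). The cell cycle list had a median log2 ratio of -0.40 over 28 genes, 6 higher and 22 lower, and 0.02 within pericyte-led nuclei.

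At P5, Cacna1c, Kcnma1 and Ryr2 were higher than at E18.5, while cell cycle genes were lower. Over all genes of marker-rich nuclei, 3.68% were at least 2-fold higher and 6.22% at least 2-fold lower (3.53% and 7.53% in all selected nuclei), with a median log2 ratio of -0.07. Cacna1c, the pore subunit of the L-type calcium channel of smooth muscle, had 825 UMIs in 67 of 68 nuclei at P5 and 506 UMIs in 62 of 64 nuclei at E18.5. That is 2265 and 1121 CPM, 2.02-fold higher (1.81 to 2.26), with 1.82 in Myh11-led nuclei, 2.68 in pericyte-led nuclei and 0.864 in other non-muscle nuclei. Kcnma1, the pore of the large-conductance calcium-activated potassium channel, was 2.39-fold higher (1.93 to 2.96; 1.20 in other nuclei). Ryr2 was 2.21-fold higher (1.79 to 2.72; 0.770 in other nuclei). Of 22 channel genes measured, 16 were higher and 6 lower, with 3 at least 2-fold higher and 1 at least 2-fold lower, and a median log2 ratio of 0.14. Within Myh11-led nuclei 16 were higher and 4 lower (median 0.34), and within pericyte-led nuclei 8 were higher and 12 lower (median -0.12).

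The contractile list had a median log2 ratio of 0.22 at P5 over E18.5 on 25 genes, of which 19 were higher, 1 at least 2-fold and 1 at least 2-fold lower. Its median was 0.17 within Myh11-led nuclei and 0.67 within pericyte-led nuclei, where 11 of 14 genes were higher. Synpo2, an actin-binding protein of dense bodies, was 1.76-fold higher (1.48 to 2.08), and Itga8, an integrin of smooth muscle, 1.93-fold higher (1.44 to 2.59). Gucy1b1, a subunit of the nitric oxide receptor that makes cGMP, had 105 UMIs in 41 of 68 nuclei at P5 and 280 UMIs in 55 of 64 nuclei at E18.5, 2.15-fold lower (1.71 to 2.72). It was lower in both kinds, with ratios of 0.524 in Myh11-led and 0.417 in pericyte-led nuclei, and its ratio was 1.12 in other nuclei. Fbn2, a fibrillin of fetal microfibrils, was 3.26-fold lower (2.49 to 4.33; 0.625 in other nuclei). Il13ra1, an interleukin receptor subunit, was found in 15 nuclei at P5 and 37 at E18.5, 4.28-fold lower (2.80 to 6.79).

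Cell cycle genes had a median log2 ratio of -0.86 in marker-rich nuclei at P5 against E18.5, with 26 of 27 lower and 12 at least 2-fold lower. In all selected nuclei the median was -0.62 and in other non-muscle nuclei -1.03. It was -0.72 within Myh11-led and -0.93 within pericyte-led nuclei, where 0 of 26 genes were higher. Imprinted genes had a median of -0.73, with 11 of 13 lower, among them Dlk1 (2.33-fold, 1.89 to 2.88), and the list had -0.40 in other nuclei. Genes of hypoxia and glucose use had a median of -1.16, with 6 of 7 lower. Ldha, lactate dehydrogenase, was 6.66-fold lower (2.37 to 25.9; 0.419 in other nuclei). Among fatty acid genes, the transporter Cd36 was found in 18 nuclei at P5 and 8 at E18.5, 5.58-fold higher (3.21 to 10.3), and 3.12-fold higher in other nuclei.

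In the adult, Cacna1c, Kcnma1 and Ano1 were higher than at P5, and every measured gene of the elastic matrix and imprinted lists was lower. The adult values rest on 24 nuclei with 50377 UMIs. These nuclei also carried the highest level of muscle fibre RNA, under a looser limit on muscle fibre genes than in the other libraries. Over all genes of marker-rich nuclei, 9.63% were at least 2-fold higher and 24.5% at least 2-fold lower (10.9% and 22.7% in all selected nuclei). All genes together had a median log2 ratio of -0.29, against which the list medians stand. Cacna1c had 296 UMIs in 24 of 24 nuclei in the adult and 825 UMIs in 67 of 68 nuclei at P5, or 5876 and 2265 CPM, 2.59-fold higher (2.26 to 2.97). It was 2.19-fold higher in Myh11-led and 3.17-fold higher in pericyte-led nuclei, with 0.589 in other nuclei. Ano1, a calcium-activated chloride channel, was found in 19 of 24 nuclei in the adult and 40 of 68 at P5, 3.18-fold higher (2.36 to 4.24; 0.900 in other nuclei). Kcnma1 was 2.13-fold higher (1.63 to 2.76), with 43.4% of its adult UMIs in 1 nucleus. Acta2 was 1.74-fold higher (1.22 to 2.43) in marker-rich nuclei and 3.76-fold higher in all selected nuclei. Ryr2 was lower, by 1.78-fold (1.13 to 2.97), and the channel list as a whole had 8 genes higher and 10 lower with a median of -0.17.

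The contractile list had a median of 0.61 over 22 genes between the adult and P5, with 14 higher and 8 lower, 6 and 3 of them by at least 2-fold, with 0.65 within Myh11-led nuclei and 0.10 within pericyte-led nuclei (7 higher and 5 lower). Filip1l, a filamin A interacting protein, was 5.69-fold higher (4.31 to 7.50), with 8.24 in Myh11-led and 1.10 in pericyte-led nuclei. In pericyte identity, 8 of 9 genes were higher, with a median of 0.52. Gna14, a G protein subunit of receptors that raise calcium, was found in 14 of 24 nuclei in the adult and 10 of 68 at P5, 9.64-fold higher (5.50 to 17.1). Timp3, a matrix-bound protease inhibitor, had 834 CPM in the adult and 93.3 CPM at P5, 8.93-fold higher, and Tgfb3, a growth factor of the TGF-beta family, 7.44-fold higher (4.51 to 12.3).

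Eln had 5 UMIs in 3 of 24 nuclei in the adult and 614 UMIs in 34 of 68 nuclei at P5, or 99.3 and 1686 CPM, 17.0-fold lower (7.24 to 52.5). Its ratio in other non-muscle nuclei was 0.390. All 22 genes of elastic and fibrillar matrix were lower in the adult, 18 at least 2-fold, with a median of -2.52, and the list had -1.89 in other nuclei. Col3a1, the chain of collagen III, was 16.2-fold lower (6.89 to 50). Fbn2 had 0 UMIs in the adult, against 67 at P5. The imprinted list had 10 of 10 genes lower with a median of -2.60, against -2.66 in other nuclei. Meg3, an imprinted noncoding RNA, had 318 CPM in the adult and 3813 CPM at P5, between 7.37-fold and 21.1-fold lower. Gnas, the stimulatory G protein subunit gene, had 11 UMIs in 7 nuclei and 1642 UMIs in 64 nuclei, 20.6-fold lower (11.5 to 41.4). Of 10 cell cycle genes measured, all were lower, and none of Mki67, Aspm and Top2a had a UMI in the adult.

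**Figure D4:**
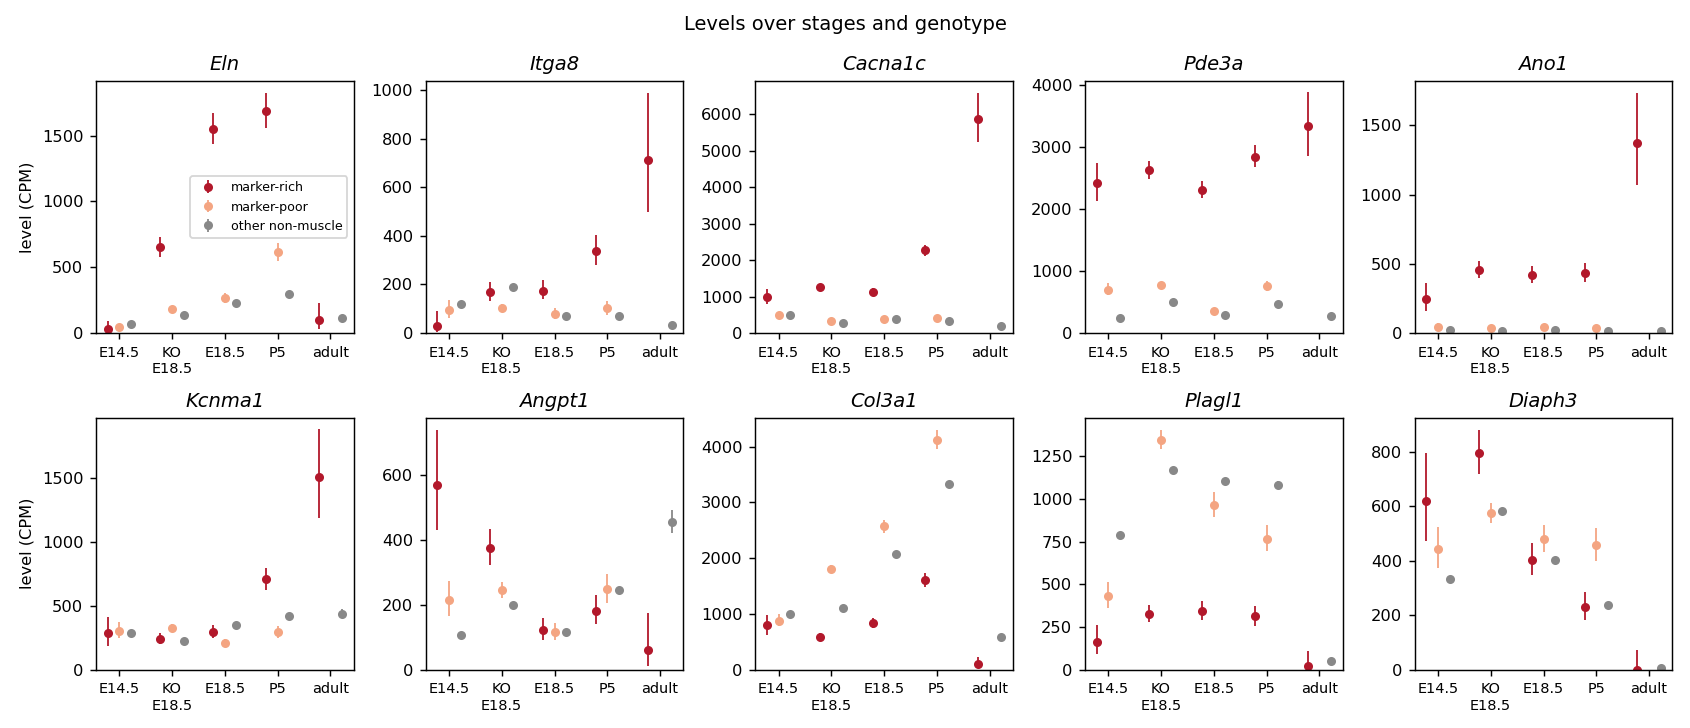
CPM of 10 genes in marker-rich, marker-poor and other non-muscle nuclei of each library, with 95% Poisson intervals as bars (counting error only), KO left of WT E18.5. Cacna1c climbs in marker-rich nuclei to 5876 CPM in the adult, while Eln is at 1552 CPM at WT E18.5, 1686 CPM at P5 and 99.3 CPM in the adult, and at 650 CPM in the KO.

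In the KO, the marker-rich nuclei had lower levels of Eln, Tagln, Myl9 and Actg2 than in WT E18.5, and higher levels of Angpt1 and of cell cycle genes. Most mural genes were within 2-fold. Over all genes of marker-rich nuclei, 3.95% were at least 2-fold higher and 4.02% at least 2-fold lower (4.74% and 4.53% in all selected nuclei), with a median log2 ratio of -0.03. Eln had 309 UMIs in 23 of 56 nuclei of the KO and 701 UMIs in 35 of 64 nuclei of WT E18.5, or 650 and 1552 CPM, 2.39-fold lower (2.09 to 2.74). In Myh11-led nuclei it had 1263 CPM in the KO and 2913 CPM in WT, 2.31-fold lower (1.98 to 2.70). In pericyte-led nuclei it had 309 CPM in the KO and 87.4 CPM in WT, but 91.2% of those 91 KO UMIs came from 1 nucleus. The ratio in other non-muscle nuclei was 0.611. Muscle nuclei, which should lack Eln, held a UMI of it in 10.7% in the KO and 7.74% at WT E18.5, against 41.1% and 54.7% of marker-rich nuclei, at median depths of the marker-rich nuclei of 7055.5 and 6173 UMIs. The list of elastic and fibrillar matrix had 18 of 22 genes lower, 4 at least 2-fold, with a median of -0.51 in marker-rich nuclei and -0.91 in other nuclei. Col1a1, a chain of collagen I, was 2.89-fold lower (2.28 to 3.68), with 0.245 in other nuclei. Fbn2 went the other way, 1.35-fold higher (1.15 to 1.58).

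The contractile list had 10 genes higher and 15 lower in the KO, 1 and 3 of them by at least 2-fold, with a median of -0.20. In all selected nuclei it was -0.56. Within Myh11-led nuclei it was -0.26 and within pericyte-led nuclei 0.48. Tagln had 38 UMIs in 17 of 56 nuclei of the KO and 85 UMIs in 26 of 64 nuclei of WT, 2.35-fold lower (1.59 to 3.55), although other non-muscle nuclei had a ratio of 2.15. In Myh11-led nuclei its ratio was 0.511 (0.329 to 0.775). Myl9 was 2.39-fold lower (1.42 to 4.15), with 0.432 in Myh11-led nuclei. Actg2, the enteric smooth muscle actin, was 2.05-fold lower (1.35 to 3.15), and Myl6, the essential light chain, 1.97-fold higher (1.33 to 2.97). Acta2 had a ratio of 0.803 (0.640 to 1.01) in marker-rich and 1.04 in Myh11-led nuclei. Mylk had 1.10 (0.944 to 1.29), Lmod1 0.700 (0.481 to 1.01) and Synpo2 1.11 (0.930 to 1.33), while in Myh11-led nuclei Synpo2 had 1.48 (1.23 to 1.79). Myocd had 0.685 (0.526 to 0.888), and 0.840 in Myh11-led nuclei. Genes of the contractile apparatus thus lay on both sides of 1 in the KO.

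Angpt1 had 178 UMIs in 24 of 56 nuclei of the KO and 55 UMIs in 21 of 64 nuclei of WT E18.5, or 375 and 122 CPM, 3.08-fold higher (2.26 to 4.24). It was higher in both kinds of nuclei, by 3.49-fold (2.34 to 5.31) in Myh11-led and 3.25-fold (1.98 to 5.57) in pericyte-led nuclei. In each kind 1 nucleus held a large part of the KO UMIs (37.8% and 34.1%), and the ratio in other non-muscle nuclei was 1.70. Mcam, an adhesion molecule of mural and endothelial cells, was 1.81-fold lower (1.40 to 2.36). Art3, an ectoenzyme of the ADP-ribosyltransferase family, was 1.85-fold lower (1.38 to 2.49), with 0.405 in pericyte-led nuclei, while other nuclei had a ratio of 7.13. Pericyte identity as a list had 2 of 9 genes higher and 7 lower, none by 2-fold, with a median of -0.23.

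Cell cycle genes had a median of 0.54 in the KO, with 27 of 33 higher, 7 at least 2-fold and 1 at least 2-fold lower. The median was 0.49 within Myh11-led, 0.39 within pericyte-led and 0.52 in other non-muscle nuclei. Mki67, a marker of cycling cells, had 121 UMIs in 16 of 56 nuclei of the KO and 49 UMIs in 12 of 64 nuclei of WT, 2.35-fold higher (1.67 to 3.34; 1.70 in other nuclei). Aspm, a protein of the spindle pole, had 82 UMIs in 11 nuclei and 23 UMIs in 9 nuclei, 3.39-fold higher (2.11 to 5.64). Top2a, the topoisomerase of dividing cells, was 1.39-fold higher (1.08 to 1.80). A UMI of Mki67 was found in 28.6% of marker-rich and 32.7% of other non-muscle nuclei of the KO, and in 18.8% and 20.9% at WT E18.5, so marker-rich nuclei did not exceed the other nuclei in this share. The nuclei with these UMIs were few, and UMIs of 1 nucleus are not independent.

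Notch, cGMP and channel genes were compared in the same way between KO and WT E18.5. The Notch list had 8 genes higher and 5 lower with a median of 0.19 and none past 2-fold, and a median of 0.42 within Myh11-led nuclei. Heyl had a ratio of 0.927 (0.585 to 1.47), Jag1 0.754 (0.605 to 0.940) and Hes1 0.674 (0.372 to 1.20). The cGMP list had 10 higher and 7 lower, none past 2-fold, with Gucy1b1 at 0.703 (0.584 to 0.844) and Pde3a, a phosphodiesterase, at 1.14. Of 23 channel genes, 12 were higher and 11 lower. Cacna1c, the smooth muscle relative of the deleted gene, had 594 UMIs in 51 of 56 nuclei of the KO and 506 UMIs in 62 of 64 nuclei of WT, a ratio of 1.12 (0.989 to 1.26). Ano1 had 1.09 (0.889 to 1.33). Ryr2 was 1.81-fold higher (1.45 to 2.27) in Myh11-led nuclei. Kcnq1, a voltage-gated potassium channel, had 37 UMIs in the KO and 7 in WT, 5.02-fold higher (2.21 to 13.4).

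Of the most changed genes between KO and WT E18.5, several came mostly from 1 nucleus. Tenm2, Pappa, Dpp6, Ctnnd2 and Kcnip4, which were higher in the KO, had between 50.7% and 77.3% of their KO UMIs in 1 nucleus. Spread over more nuclei were Hoxc4, a positional transcription factor, found in 24 nuclei of the KO and 7 of WT and 4.66-fold higher (2.33 to 10.3), and Kcnt2, a sodium-activated potassium channel, found in 18 and 11 nuclei and 3.89-fold higher (2.42 to 6.51). On the lower side, Grip2, a scaffold protein, was found in 8 nuclei of the KO and 25 of WT and was 4.59-fold lower (2.35 to 9.80). Nox4, an NADPH oxidase, had 39 UMIs in 14 nuclei of the KO and 129 UMIs in 24 nuclei of WT, 3.48-fold lower (2.42 to 5.12), while its ratio in other non-muscle nuclei was 0.974.

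**Figure D5:**
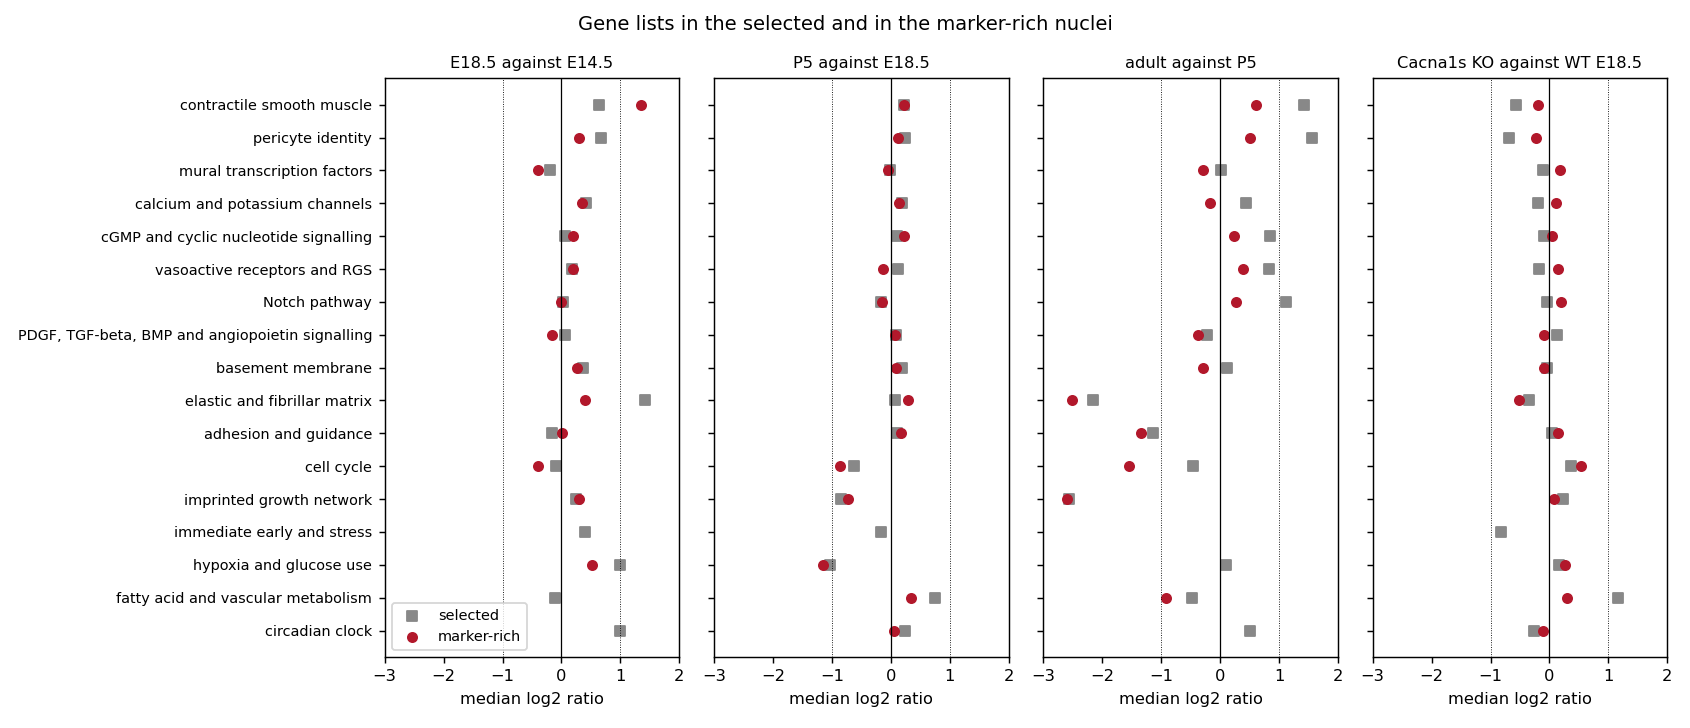
Median log2 ratio of 17 gene lists in 4 comparisons, in all selected nuclei (grey squares) and in marker-rich nuclei (red circles), with dotted lines at 2-fold; a list with too few measured genes has no point. Elastic and fibrillar matrix is at -2.52 in marker-rich nuclei of the adult against P5 and at -0.51 in the KO against WT E18.5, and the cell cycle list is at -0.86 at P5 against E18.5 and at 0.54 in the KO.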

How the data were processed

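The authors aligned RNA and ATAC reads to mm10 with Cell Ranger ARC 2.0.0, counting intronic reads, and deposited whole-number counts per barcode: UMIs for 32285 genes and cut-site counts for peaks called per library. Here nuclei with 400 to 25000 UMIs, below 10% mitochondrial UMIs and below 70000 peak counts were kept. Counts were summed over the nuclei of a library and given as CPM of their total. Genes with at least 30 UMIs in the 2 sums together were compared, and 2-fold marked a difference. The deposited peak counts were mostly even, so intervals used them divided by 2. The intervals are 95% limits, and with 0 UMIs a floor of 3 counts was used. The members and lists were chosen with earlier results of these data known. Genes named in the comparisons belong to 17 lists, or were among the 10 highest or lowest ratios with at least 50 UMIs. These ratios left out mitochondrial, ribosomal, Gm, Rik and selection genes, and used nuclei where the genes exceeded other nuclei. The genes named as highest over other non-muscle nuclei came from a separate ranking of these same data. So did some genes that differed between Myh11-led and pericyte-led nuclei. Alternatives are given at the end. Tables were handled with pandas 2.3.3 and numpy 2.4.6 in Python 3.11.15, intervals came from scipy 1.17.1, and plots from matplotlib 3.10.9. The script was tested on simulated data.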

Additional observations from a re-analysis of the deposited data

How the results depend on the processing

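The number of selected nuclei depended on the rule. At least 3 UMIs of the 6 genes gave 112 nuclei at E14.5 and 190 at WT E18.5, and at least 8 UMIs gave 112 in the KO and 37 at E14.5. At least 3 of the 6 genes gave 101 in the KO and 81 at WT E18.5. With fewer than 5 mesenchymal UMIs the counts were 45 in the KO and 20, 40 and 38 at WT E14.5, E18.5 and P5. The share limits, chosen after the data were seen, gave 100 in the KO and 77 at WT E18.5 at 0.1%, then 56 in the KO and 22, 64 and 68 along the WT stages to P5 at 0.2%, and 40 in the KO and 15, 50 and 59 at 0.3%. Thinning to 2000 UMIs gave 58 in the KO and 25, 63, 63 and 6 along the WT stages. Genes past 2-fold numbered 1237 at E18.5 against E14.5, 925 at P5 against E18.5, 1806 in the adult against P5 and 917 in the KO against WT, in all selected nuclei. In this order they numbered 6600, 6136, 11494 and 5028 with no filter, 398, 224, 860 and 309 with at least 100 UMIs, and 672, 397, 821 and 473 at the 0.3% limit. The 0.2% limit gave 436 for the KO, 490 for P5 and 1009 for the adult, and fewer than 5 mesenchymal UMIs gave 564, 294 and 440 in the 3 stage comparisons. The cause of these shifts was not tested, beyond the smaller number of nuclei or genes. The Myh11-led share of selected nuclei was 0% at E14.5 and 23.0% at WT E18.5 when 75% of the UMIs were asked for, and at the 0.2% limit it was 41.8% in the KO, 56.2% at WT E18.5 and 44.1% at P5.

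The list medians kept their side of 2-fold in 60 of 68 cases at the 0.2% limit and 53 of 66 at 0.3%. They did so in 51 of 64 with fewer than 5 mesenchymal UMIs and 65 of 68 under median-ratio scaling. Medians below 2-fold in both settings counted as kept whatever their sign, so changes of sign among them were not counted. Those that changed sign and were at least 2-fold in either setting were elastic matrix at E18.5 against E14.5 (-0.33 with fewer than 5 mesenchymal UMIs, 1.42 in all selected nuclei), immediate early genes at P5 (1.51 at the 0.3% limit, -0.16 before) and in the adult (1.71 with at least 10 UMIs, -0.85 before), and hypoxia genes in the adult (-1.27 with fewer than 5 mesenchymal UMIs and -1.04 at the 0.3% limit, 0.10 before). No paired analysis was possible because each group had 1 library. For the same reason no replicate could be left out.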
